A study of Mus musculus with 12 samples.

Results

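FGF21 is a hormone made mainly by the liver, and Fgf21, its coreceptor gene Klb and the receptor genes Fgfr1, Fgfr2, Fgfr3 and Fgfr4 were followed here in mouse liver under endoplasmic reticulum (ER) stress. These 6 genes were taken from 18193 genes with a usable probe set on the array, by matching the gene symbol of each probe set to the 6 names. Together they had 16 of the 45037 probe sets tested: 1 for Fgf21, 2 for Klb, 3 for Fgfr1, 3 for Fgfr2, 2 for Fgfr3 and 5 for Fgfr4. The main value of a gene was taken from its brightest probe set, judged by the mean of the 12 arrays.

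The study challenged wild-type and Atf6a-/- animals with tunicamycin (TM), a drug that blocks N-linked glycosylation and so causes protein misfolding in the ER. ATF6a is a stress sensor and transcription factor of the unfolded protein response (UPR), and Atf6a-/- animals lack it in every tissue. The 4 groups of 3 animals were wild-type vehicle, Atf6a-/- vehicle, wild-type TM and Atf6a-/- TM. Each animal had 1 Affymetrix array of RNA from liver homogenate, 12 arrays in all. TM was injected intraperitoneally at 1 mg/kg in 150 mM dextrose, and vehicle animals received the dextrose without the drug. Livers were taken 34 h after injection according to the sample titles and the extraction protocol, whereas the source field gives 8 h. Animals were of variable age and gender, which are not given per animal, and the labels name no other allele or agent. Values are log2 levels after robust multi-array averaging (RMA), so a difference of 1 is a doubling of signal.

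FGFs signal through receptor tyrosine kinases, which recruit the adaptor FRS2 and switch on the RAS and ERK cascade. FGF21 binds its receptors only together with beta-Klotho, the product of Klb, and acts mostly on fat and brain through FGFR1. In hepatocytes beta-Klotho pairs with FGFR4, the receptor of the intestinal hormone FGF15, which restrains bile acid synthesis. Fgf21 itself is activated in liver by fasting through PPARa and by ER stress through ATF4 and CHOP, transcription factors downstream of the kinase PERK.

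Fgf21 is a known target of ATF4, which binds C/EBP-ATF response elements. The stretch of 250 bases before the Fgf21 start (GRCm38.p6, chr7:45615491-45615740, minus strand, RefSeq) is shown because it holds 1 match to the core of this element, in capitals, 139 bases before the start:
Fgf21: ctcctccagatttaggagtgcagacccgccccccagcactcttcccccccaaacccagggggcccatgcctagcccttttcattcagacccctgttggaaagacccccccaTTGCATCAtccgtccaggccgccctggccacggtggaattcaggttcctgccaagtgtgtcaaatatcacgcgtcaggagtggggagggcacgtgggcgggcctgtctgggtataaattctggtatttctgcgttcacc
The capitals are TTGCATCA, the reverse complement of a TGATGNAA core. Both strands were searched from 250 bases before to 50 after the start, and 1304 of 32851 promoter windows of this kind in the RefSeq table, or 3.97%, held the core. Of the 5 members with a window, 1 held it, which was Fgf21. Klb, Fgfr2, Fgfr3 and Fgfr4 showed no match to these letters, and Fgfr1 had no window in the table. Of the 15 other ATF4 target genes with a window, 7 held the core. The elements of 4 of them are set beside that of Fgf21, each with 10 bases on either side and the core in capitals, all upstream of the start in the same build: Asns at chr6:7693215-7693242, Atf3 at chr1:191183426-191183453 and Nupr1 at chr7:126625563-126625590, on the minus strand, and Chac1 at chr2:119351039-119351066, on the plus strand.
Asns: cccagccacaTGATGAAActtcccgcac
Atf3: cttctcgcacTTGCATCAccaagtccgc
Chac1: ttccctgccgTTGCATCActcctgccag
Nupr1: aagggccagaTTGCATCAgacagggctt
Their responses to TM are given further on. No member window held TGACGTG (the UPR element core, in 2.01% of all windows), the ER stress response element, in which CCAAT and CCACG lie 9 bases apart (0.119%), AGGTCA (a nuclear receptor half-site, 16.3%) or a pair of AGGTCA 1 base apart (0.0400%). These are matches of letters in short windows and do not show binding.

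RMA sets the arrays to a common distribution, so their medians, 4.64 to 4.71, do not compare their signal, and the number of arrays limits the precision. The hybridization spike-ins averaged 8.81 to 9.21 in the vehicle arrays, 8.54 to 8.86 in wild-type TM and 8.43 to 8.50 in Atf6a-/- TM arrays. The actin 3′ minus 5′ difference, a sign of RNA quality, was 0.91, 0.88 and 1.00 in Atf6a-/- TM arrays and 0.997 to 1.32 in the other 9. On the first principal component the 6 vehicle arrays lay between -61.5 and -55.8 and the Atf6a-/- TM arrays between 113.6 and 119.9, whereas wild-type TM animal 2 lay at 29.5, apart from animals 1 and 3 at -12.9 and -11.9. The part of these array differences in the results was not tested. Without wild-type TM animal 2 the counts of called members were the same in all 5 comparisons, and Fgfr4 fell by 1.16 in wild-type livers (limma adjusted p = 0.0015). Atf6 read 8.42 to 8.54 in wild-type vehicle livers and 6.60 to 6.88 in Atf6a-/- vehicle livers, a difference of -1.71 ± 0.15 (SE; limma adjusted p = 0.00611). Leaving out wild-type vehicle animal 1 or 2, or Atf6a-/- vehicle animal 2 or 3, lost this call (adjusted p = 0.0524 to 0.0714), with every Atf6a-/- vehicle animal still below every wild-type one. After TM it read 9.30 to 9.72 and 9.23 to 9.81, so that the genotypes overlapped. Where this probe set lies relative to the deleted part is not given, so the TM levels do not check the genotype labels. The liver identity of the samples was plain from 9 measured hepatocyte markers, among them Alb and Ttr, none of which lay below the array median in all groups. Their summed level was 17.1 to 17.3 in wild-type vehicle, 17.0 to 17.3 in Atf6a-/- vehicle, 16.6 to 17.0 in wild-type TM and 16.1 to 16.4 in Atf6a-/- TM livers (log2). Of these 9 markers 6 fell in the Atf6a-/- response and 1 in the wild-type response, where 12.8% and 3.86% of all genes were called lower. In bulk liver, fewer cells of a type and less RNA per cell cannot be told apart.

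A gene was called when its limma adjusted p was below 0.05 over all probe sets and it differed by more than 1.5-fold. In wild-type animals TM lowered Fgfr4 and Fgfr3 and raised none of the 6 genes. Over all genes 3.45% were called higher and 3.86% lower in this comparison. In Atf6a-/- animals TM raised Fgf21 and lowered Fgfr4, Fgfr3 and Fgfr2, where 15.2% of all genes were called higher and 12.8% lower. Comparing the genotypes after TM, Fgfr4 was lower in Atf6a-/- livers and no other member was called, against 11.3% of genes higher and 8.45% lower. After vehicle none of the 6 genes was called, and Atf6 itself was the only gene of the array that was (0.00550% of genes, either direction). The difference between the 2 responses, tested as an interaction, was called for Fgfr4 and Fgfr2, both more negative in Atf6a-/- animals, where 7.56% of genes were called more positive and 6.69% more negative. These comparisons share arrays: both TM responses use the TM groups that the genotype comparison also uses.

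**Figure D1:**
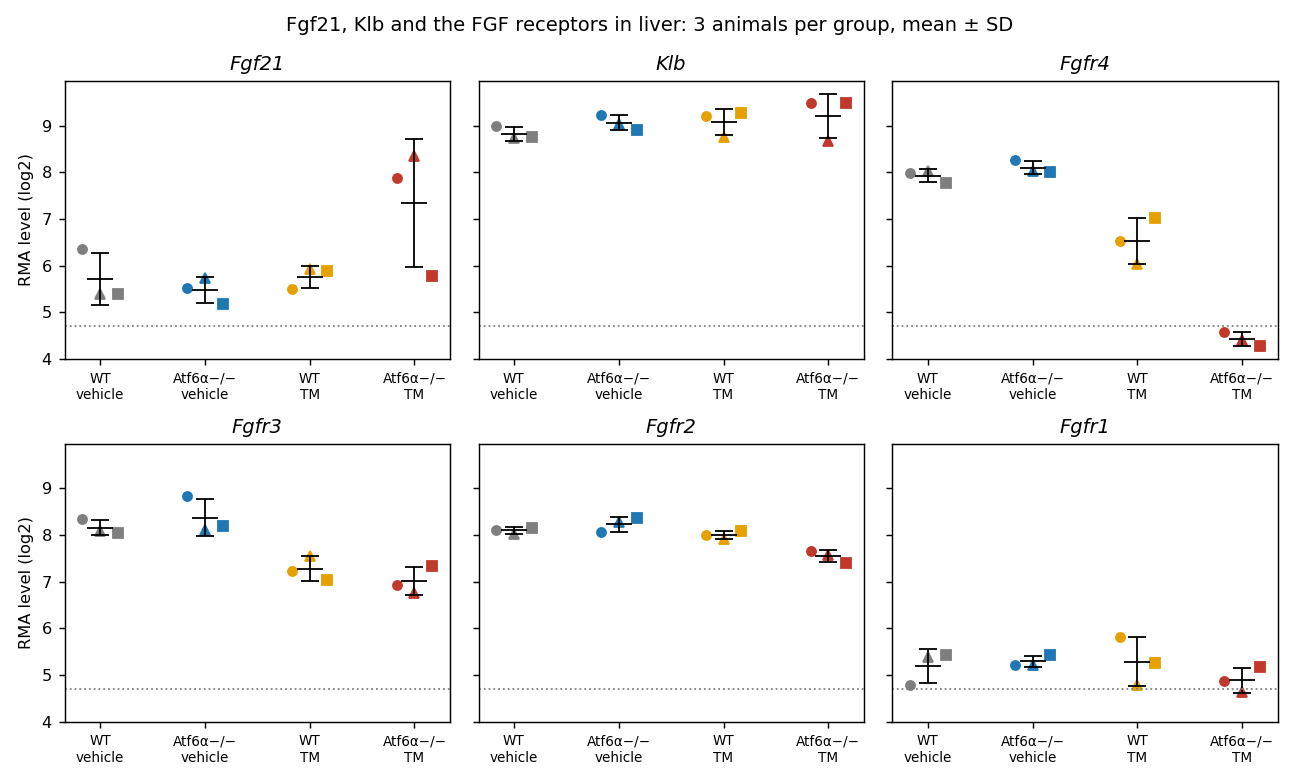
RMA level (log2) of the main probe set of each gene in the 4 groups; circles, triangles and squares are animals 1, 2 and 3, black bars are the mean and SD, and the dotted line is the highest array median (4.71). Fgfr4 steps down from vehicle to wild-type TM to Atf6a-/- TM, whereas Fgf21 is high in only 2 of the 3 Atf6a-/- TM animals.

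Fgf21, the ligand (probe set 1422916_at), read 6.36, 5.39 and 5.40 in wild-type vehicle animals 1, 2 and 3 and 5.52, 5.73 and 5.18 in Atf6a-/- vehicle animals. After TM the wild-type animals read 5.49, 5.93 and 5.88, and the Atf6a-/- animals 7.88, 8.35 and 5.78. Animals 1 and 2 of the Atf6a-/- TM group thus stood above every other liver, while animal 3 lay within the range of the wild-type TM animals and below wild-type vehicle animal 1, only just above the highest Atf6a-/- vehicle animal. The Atf6a-/- response was 1.86 ± 0.52 (SE; 3.63-fold, limma adjusted p = 0.0171), with group means of 7.34 ± 1.37 after TM and 5.47 ± 0.28 after vehicle (SD, n = 3). This call rested on few animals: it was lost without Atf6a-/- TM animal 1 or 2 or without Atf6a-/- vehicle animal 3, with adjusted p = 0.0726, 0.0736 and 0.0639.

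In wild-type animals Fgf21 did not pass the test, with a difference of 0.05 and a 95% interval from -1.09 to 1.19. Between the genotypes after TM, Fgf21 was 1.57 ± 0.52 (SE) higher in Atf6a-/- livers but missed the threshold (limma adjusted p = 0.0562), and without Atf6a-/- TM animal 3 it passed, at 2.35 (adjusted p = 0.00029). The interaction was 1.81 ± 0.73 (adjusted p = 0.167), and 2.59 (adjusted p = 0.00213) without that animal. So a difference of the Fgf21 response between genotypes was not shown with all 12 arrays. In the order of levels, Atf6a-/- TM came first, followed by wild-type TM, wild-type vehicle and Atf6a-/- vehicle. Neighbours in this order overlapped and gave exact two-sided permutation p = 0.30, 0.80 and 0.70, where 3 against 3 animals cannot go below 0.10. The range of Fgf21 signal in vehicle livers, 5.18 to 6.36, was not far above the array medians.

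Klb, the coreceptor, passed the test in no comparison (probe set 1449568_at). It read 8.99, 8.73 and 8.75 in wild-type vehicle, 9.23, 9.04 and 8.91 in Atf6a-/- vehicle, 9.20, 8.75 and 9.28 in wild-type TM and 9.48, 8.67 and 9.50 in Atf6a-/- TM animals. All 4 groups overlapped. The wild-type response was 0.25 (95% interval -0.21 to 0.72) and the Atf6a-/- response 0.16 (-0.31 to 0.62), neither called, so that changes of up to about these bounds cannot be told from none. The neighbours in the order of levels had exact permutation p = 0.60, 0.90 and 0.20. The second Klb probe set lay below the array median in every group, with means of 3.75 to 3.93.

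Fgfr4, the receptor with which beta-Klotho conveys FGF15 signals in hepatocytes, showed the largest changes of the 6 genes (probe set 1418596_at). It read 7.98, 8.02 and 7.77 in wild-type vehicle and 8.26, 8.04 and 8.00 in Atf6a-/- vehicle animals. After TM the 3 wild-type animals read 6.52, 6.03 and 7.01, and the Atf6a-/- animals 4.58, 4.40 and 4.28. The vehicle groups overlapped, every wild-type TM animal lay below every vehicle animal, and every Atf6a-/- TM animal lay below every wild-type TM animal and under its array's median. The wild-type response was -1.41 ± 0.20 (SE; 2.65-fold lower, limma adjusted p = 0.00116). The Atf6a-/- response was -3.68 ± 0.20 (adjusted p = 1.1e-07). The Atf6a-/- TM level lay under the median of its own arrays. With each array's own median as the floor, or the probe set's value where that was higher, it was at least 10.8-fold lower than after vehicle, and at least 3.61-fold lower than in wild-type TM livers (-2.10 ± 0.20, adjusted p = 1.99e-05). The difference between the responses was -2.27 ± 0.28 (adjusted p = 0.000383). The drop steps from vehicle to wild-type TM and from wild-type TM to Atf6a-/- TM each had exact permutation p = 0.10, the smallest possible.

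The upstream 250 bases of Fgfr4 (GRCm38.p6, chr13:55152568-55152817, plus strand, RefSeq) are shown beside this change because they hold none of the searched motifs, so no letters are in capitals:
Fgfr4: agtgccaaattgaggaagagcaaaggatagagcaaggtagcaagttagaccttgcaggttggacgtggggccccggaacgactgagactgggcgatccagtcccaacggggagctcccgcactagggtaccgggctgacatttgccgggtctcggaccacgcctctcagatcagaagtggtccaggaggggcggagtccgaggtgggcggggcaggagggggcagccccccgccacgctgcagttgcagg
The absence of these letters from this window says nothing of other sites.

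The 5 Fgfr4 probe sets did not respond alike. The second brightest (1427846_x_at) had group means from 6.16 to 6.51 and changed by -0.34 in Atf6a-/- animals (adjusted p = 0.041), under the fold threshold, and by -0.13 in wild-type animals. The probe set of rank 3 (1427777_x_at) fell by 1.02 in Atf6a-/- animals (adjusted p = 2.2e-05), and its interaction of -0.64 was also called (adjusted p = 0.0225). The fourth fell by 1.72 in Atf6a-/- animals from a mean of 5.06 (adjusted p = 0.000125), at least 1.31-fold, and its 3 other group means were 4.80 in wild-type vehicle, 3.97 in wild-type TM and 3.34 in Atf6a-/- TM. The fifth lay below the array median throughout, with means of 3.46 to 3.69. No Fgfr4 probe set was called higher in any comparison. Probe sets with the suffix x can share probes with other transcripts, and which exons each one reads is not given in the files used here.

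**Figure D2:**
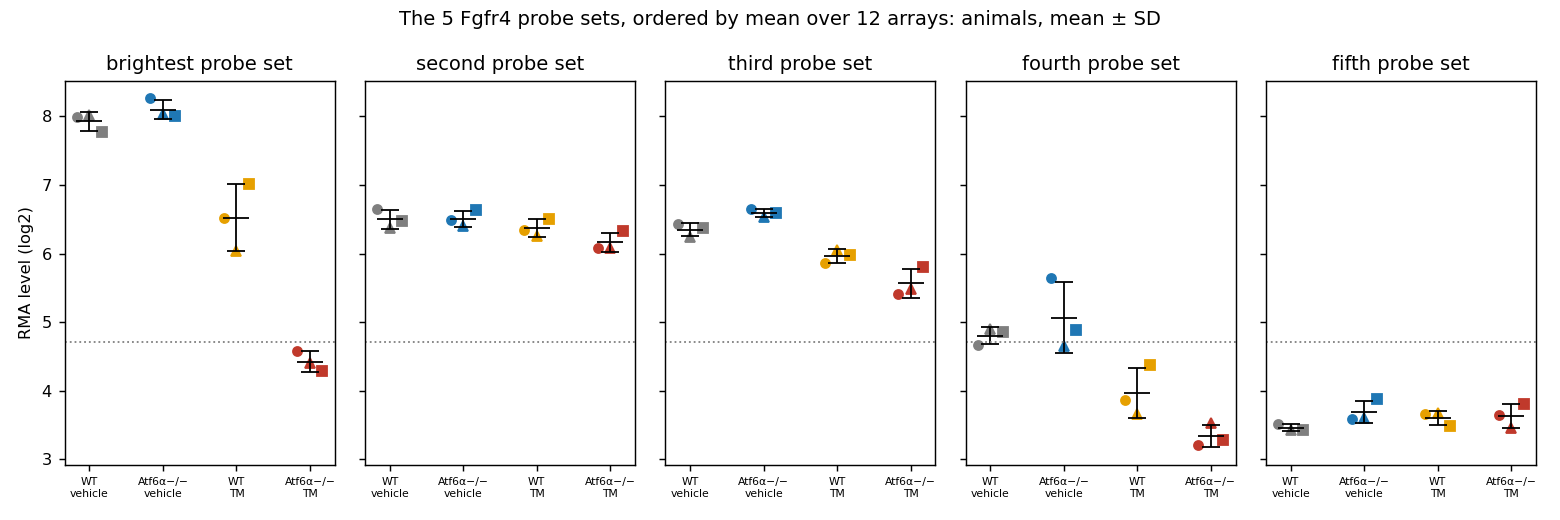
RMA level (log2) of the 5 Fgfr4 probe sets, ordered by mean level over the 12 arrays, in the 4 groups (3 animals each, black bars mean and SD, dotted line the highest array median). The brightest probe set spans 8.26 to 4.28, the second changes little, and the fifth lies under the line in every animal.

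Fgfr3, another receptor that can pair with beta-Klotho, read 8.35, 8.08 and 8.05 in wild-type vehicle and 8.83, 8.10 and 8.19 in Atf6a-/- vehicle animals (probe set 1421841_at). The TM animals read 7.24, 7.56 and 7.03 (wild-type) or 6.94, 6.76 and 7.34 (Atf6a-/-). All 6 TM animals lay below all 6 vehicle animals, while the genotypes overlapped within each treatment. The wild-type response was -0.88 ± 0.21 (SE; 1.85-fold lower, limma adjusted p = 0.0264), and the call was lost on leaving out any 1 of 5 wild-type animals (adjusted p = 0.0604 to 0.0952; all but TM animal 2). The Atf6a-/- response was -1.36 ± 0.21 (2.57-fold lower, adjusted p = 0.000332). The genotypes after TM differed by -0.26, with a 95% interval from -0.72 to 0.20, and the interaction was -0.48 (adjusted p = 0.423), so a genotype difference was not shown. Relative to Btf3 and Ppia the interaction was -0.92 and passed (adjusted p = 0.0422). The second Fgfr3 probe set, with means of 5.07 to 5.49, was not called in any comparison (Atf6a-/- response -0.42, adjusted p = 0.0506).

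Fgfr2 read 8.11, 8.03 and 8.16 in wild-type vehicle, 8.06, 8.28 and 8.37 in Atf6a-/- vehicle and 8.00, 7.92 and 8.08 in wild-type TM animals (probe set 1433489_s_at). In Atf6a-/- TM animals it read 7.66, 7.58 and 7.40. The first 3 groups overlapped and the Atf6a-/- TM animals all lay below them. The Atf6a-/- response was -0.69 ± 0.11 (SE; 1.61-fold lower, limma adjusted p = 0.000308), whereas the wild-type response was -0.10 (adjusted p = 0.719). The interaction of -0.59 ± 0.15 passed the test (adjusted p = 0.0258), with a fold of 1.504 against the threshold of 1.5. This call was lost on leaving out wild-type vehicle animal 2, wild-type TM animal 1 or 3, Atf6a-/- vehicle animal 2 or 3 or Atf6a-/- TM animal 3 (adjusted p = 0.0522 to 0.073). Between genotypes after TM Fgfr2 differed by -0.45 (adjusted p = 0.00899), under the fold threshold. The Fgfr2 probe sets of rank 2 and 3 changed by -0.40 (adjusted p = 0.0109) and 0.02 (adjusted p = 0.936) in Atf6a-/- animals and were not called.

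Fgfr1, the main FGF21 receptor of fat and brain, was the dimmest of the 4 receptors by its mean over the 12 arrays. In Atf6a-/- TM livers, however, Fgfr4 read lower, with a mean of 4.42 against 4.89 for Fgfr1. Its brightest probe set (1424050_s_at) read from 4.64 to 5.82 over the 12 animals, close to the array median, and its other probe sets lay below that median in every group. The group means were 5.20 ± 0.36 in wild-type vehicle, 5.29 ± 0.12 in Atf6a-/- vehicle, 5.29 ± 0.52 in wild-type TM and 4.89 ± 0.26 in Atf6a-/- TM livers (SD, n = 3). No comparison was called, and the Atf6a-/- response of -0.40 had a 95% interval from -0.94 to 0.13. Levels of different genes on an array depend on their probes, so this order among the receptors describes signal, not transcript number.

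**Figure D3:**
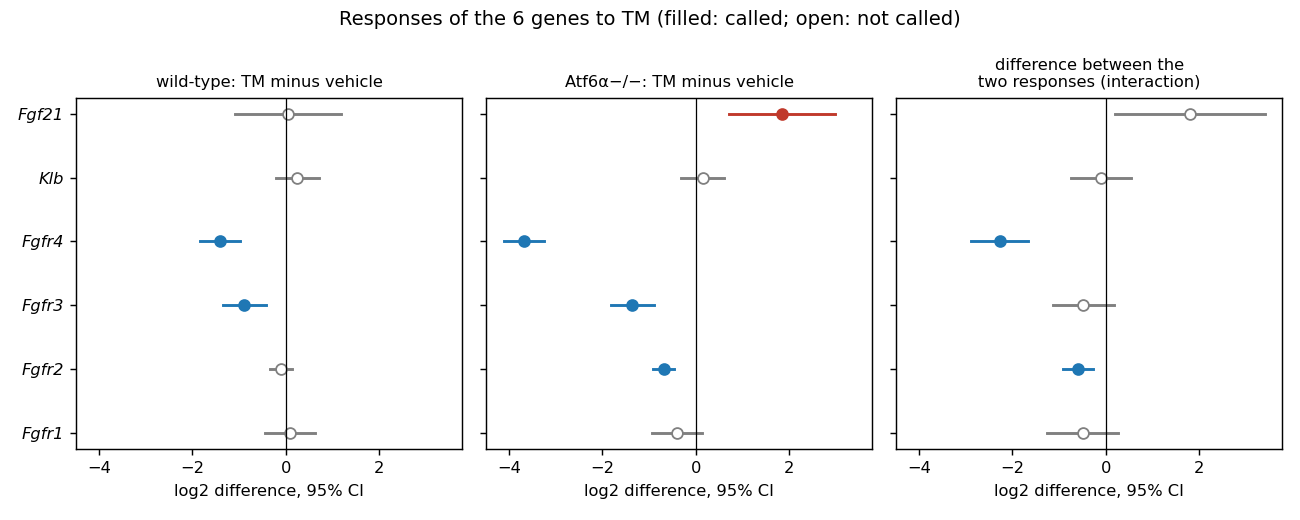
Log2 difference of TM minus vehicle for each genotype, and the difference between these responses, with 95% intervals for the main probe set of each gene (filled red, called higher; filled blue, called lower; open grey, not called). In Atf6a-/- livers Fgf21 lies at 1.86 and Fgfr4 at -3.68, with Klb near 0, and only Fgfr4 and Fgfr2 have a called difference between responses.

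Of 16 regulators of Fgf21 transcription, 4 rose and 7 fell in Atf6a-/- animals, and 2 rose and 2 fell in wild-type animals. By the methods' t-test after adjustment 4 rose and 5 fell in Atf6a-/- animals and none was called in wild-type animals. Their median response was -0.24 in Atf6a-/- and -0.09 in wild-type animals, beside -0.01 and -0.02 over all genes, which are also the values to set beside the list medians that follow. Likewise, this and the later list counts stand beside 15.2% of all genes called higher and 12.8% lower in Atf6a-/- animals. In wild-type animals these shares were 3.45% and 3.86%. Relative to Btf3 and Ppia the Atf6a-/- counts were 4 and 9, and relative to the spike-ins 6 and 4. The 4 that rose in Atf6a-/- animals were Ddit3, Eif2ak3, Atf4 and Rora. Ddit3, which encodes CHOP, rose by 4.25 ± 0.54 (SE) in wild-type and 6.38 ± 0.54 in Atf6a-/- livers (adjusted p = 0.000588 and 2.87e-06). Its genotype difference after TM, 1.64, and its difference between responses, 2.14, were not called (limma adjusted p = 0.0533 and 0.108). Both passed without wild-type TM animal 2 (adjusted p = 2.7e-05 and 0.000139). Eif2ak3, which encodes PERK, rose by 1.66 and 2.13 (adjusted p = 0.00628 and 0.000186). Atf4 rose by 2.23 ± 0.23 in Atf6a-/- livers (adjusted p = 1.51e-05), whereas in wild-type livers its difference was 0.73 (adjusted p = 0.0939), and the responses differed by 1.499 (adjusted p = 0.0121). Rora is a nuclear receptor gene, with a difference between responses of 1.79 (adjusted p = 7.52e-05). Xbp1 was not called in either response (0.25 and -0.14).

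Ppara, Rxra, Mlxipl and Nr1h4 were among the 7 regulators that fell in Atf6a-/- animals. Ppara, the fasting regulator, read 11.1 to 11.5 over the vehicle animals and 9.92 to 10.3 in wild-type TM animals. In Atf6a-/- TM animals 1, 2 and 3 it read 6.24, 6.68 and 5.90. Its wild-type response was -1.20 ± 0.18 and its Atf6a-/- response -4.91 ± 0.18 (SE, adjusted p = 0.0017 and 8.44e-09). Rxra, the partner of PPARa on DNA, and Mlxipl, which encodes ChREBP, fell by 3.01 and 2.97 in Atf6a-/- livers (adjusted p = 6.33e-08 and 8.45e-07). Nr1h4, the bile acid receptor FXR, fell by 1.09 in wild-type animals (adjusted p = 0.00112), with means of 10.2 after vehicle and 9.13 after TM. In Atf6a-/- animals its means were 10.1 after vehicle and 8.09 after TM.

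Of 17 ATF4 target genes other than Fgf21, 7 rose in wild-type animals and none fell, and in Atf6a-/- animals 12 rose and 2 fell, with medians of 1.24 and 1.77. The wild-type count was lower, 4 or 5, on leaving out any animal other than wild-type TM animal 1, without which it was 10, and it was 0 by the methods' t-test after adjustment. Nupr1, a stress-induced chromatin protein, rose by 5.09 in wild-type and 7.32 in Atf6a-/- livers (adjusted p = 3.34e-05 and 1.26e-07). Psat1, of serine synthesis, lay below the array median in both vehicle groups and rose at least 16.9-fold and 88.0-fold (adjusted p = 8.49e-05 and 3.44e-07), with the same floor as for Fgfr4. Atf3 rose at least 137-fold in Atf6a-/- livers, whose vehicle mean was under the highest array median (adjusted p = 0.000732). Ppp1r15a, which encodes the eIF2a phosphatase subunit GADD34, was 2.45 higher in Atf6a-/- than in wild-type livers after TM (adjusted p = 0.000279). The 2 that fell in Atf6a-/- livers were Shmt2, of mitochondrial folate metabolism, by 1.54, and Cth, of cysteine synthesis, by 1.09 (adjusted p = 5.52e-06 and 0.00625).

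Set beside these genes, Fgf21 stood apart in some animals. In Atf6a-/- TM animal 3, where Fgf21 was 5.78, Nupr1 read 12.8, Psat1 11.1, Ddit3 12.9 and Atf4 12.5. In animals 1 and 2 of the same group, with Fgf21 at 7.88 and 8.35, Nupr1 read 12.8 and 13.2, Psat1 11.2 in both, Ddit3 12.5 and 13.0, and Atf4 12.4 in both. The 4 stress genes were about as high in animal 3, without an Fgf21 rise, as in animals 1 and 2. This rests on 1 animal and on mRNA, not protein, and why Fgf21 was lower in it was not tested. Wild-type TM animal 2 had Ddit3 at 12.9 and Nupr1 at 11.6, the highest of its group. Its Fgf21, 5.93, was also the highest of that group, but within the vehicle range of 5.18 to 6.36. The 4 genes whose elements were printed with that of Fgf21 also differed among themselves: Asns, Chac1 and Nupr1 rose by 2.64, 1.62 and 7.32 in Atf6a-/- livers, beside Atf3 with the bound given above. In wild-type livers the differences of Asns, Atf3, Chac1 and Nupr1 were 2.22, 4.01, 1.67 and 5.09, where Atf3 and Chac1 did not pass the test.

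**Figure D4:**
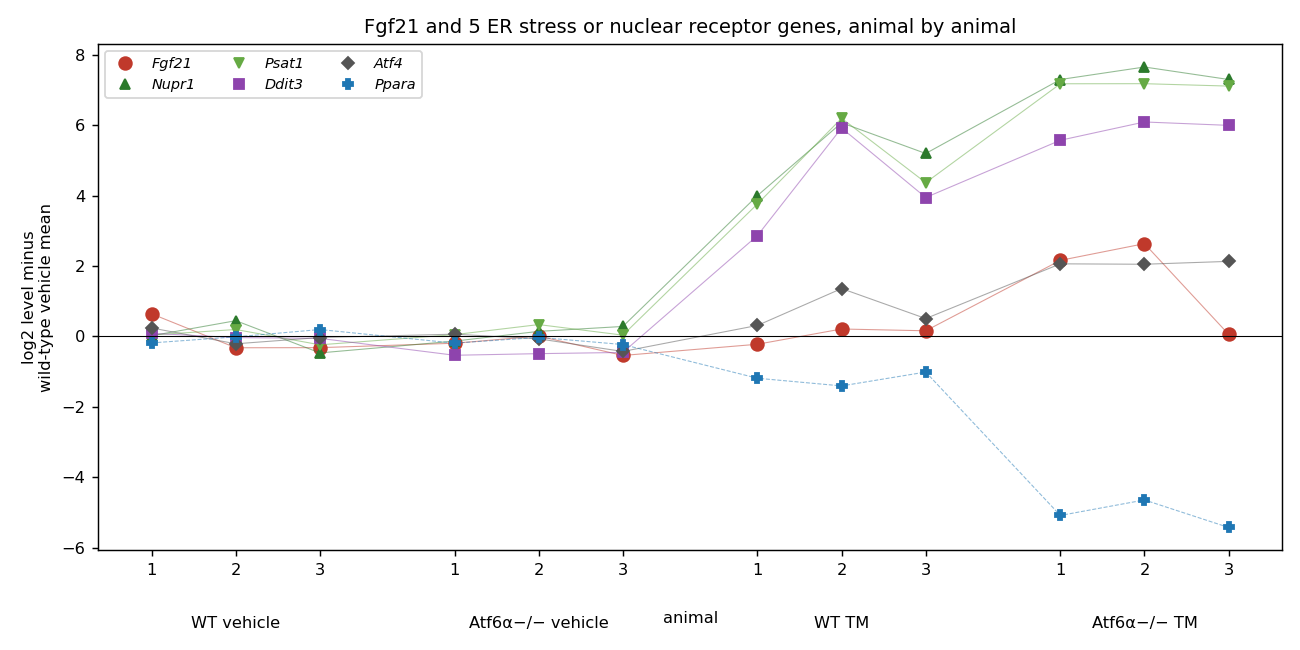
Log2 level of Fgf21, Nupr1, Psat1, Ddit3, Atf4 and Ppara in each of the 12 animals, as the difference from the wild-type vehicle mean of the same gene; thin lines join the points of 1 gene and mark no order of animals. In Atf6a-/- TM animal 3 Fgf21 lies near 0 while Nupr1, Psat1, Ddit3 and Atf4 lie as high as in animals 1 and 2.

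Cell type markers were compared across the same animals. In Atf6a-/- TM animals 1, 2 and 3 the summed level of 9 hepatocyte markers was 16.1, 16.2 and 16.4 (log2). The 8 pancreatic acinar markers, a source of Fgf21 outside the liver, summed to 10.1, 10.3 and 10.4 in these animals against 9.23 to 10.3 in wild-type vehicle, 9.63 to 10.2 in Atf6a-/- vehicle and 9.60 to 10.1 in wild-type TM animals, none of the 8 was called, and Cpa1 and Cel lay below the array median in every group. The 4 adipocyte markers had none called in either response, and Adipoq and Lep lay below the array median in every group. The 8 neutrophil markers summed to 11.4, 9.44 and 10.9 in the 3 animals, 8.63 to 9.40 in wild-type TM, 8.11 to 8.32 in wild-type vehicle and 7.97 to 8.13 in Atf6a-/- vehicle animals, with 2 of 8 called higher in the Atf6a-/- response. Of 10 Kupffer cell and macrophage markers 2 rose and 6 fell in that response, with summed levels of 11.6 to 12.0 against 12.2 to 12.8 in Atf6a-/- vehicle animals. In the wild-type response 1 of them rose and 4 fell, with summed levels of 11.4 to 11.8 against 12.1 to 12.5 after vehicle. In the Atf6a-/- response 1 of 12 stellate cell and fibroblast markers rose and 2 fell. Of 10 endothelial markers 2 fell, of 4 red cell markers 1 fell, and none of 6 cholangiocyte or 8 lymphocyte markers was called. Over all genes 15.2% were called higher and 12.8% lower in the Atf6a-/- response, and 3.45% and 3.86% in the wild-type response. The part of these cell types in the Fgf21 and receptor values was not tested.

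Of the 21 other FGF ligands measured, Fgf1 alone was called. Fgf1, a broad receptor agonist, fell by 2.61 ± 0.21 (SE) in wild-type and 4.23 ± 0.21 in Atf6a-/- livers (adjusted p = 3.8e-05 and 7.09e-08). It read 8.91 to 9.80 over the vehicle animals and 6.64, 6.65 and 7.34 in wild-type TM animals. In Atf6a-/- TM animals it read 5.03, 5.16 and 4.71, close to the array median, and these 3 sets did not overlap. The responses differed by -1.63 (adjusted p = 0.00491). Fgf15, the intestinal ligand of FGFR4, read 4.24 to 4.63 in all 12 livers, under the highest array median, with responses of -0.02 and -0.03. The ligand list had medians of 0.00 and -0.03. Relative to Btf3 and Ppia, however, 10 of the 21 were called lower in Atf6a-/- livers, and relative to the spike-ins 5 were called higher and 1 lower. These scalings moved the Atf6a-/- responses of all genes alike, by -0.52 and 0.49. Many of these ligands, such as Fgf2, Fgf8, Fgf16 and Fgf23, lay below the array median in every group. The added calls are therefore not read as changes of the ligands. Of the 3 coreceptor and decoy receptor genes measured, Fgfrl1, a receptor without a kinase domain, fell by 0.78 in Atf6a-/- livers (adjusted p = 0.000123). Its wild-type difference of -0.46 was under the fold threshold, and Kl, the Klotho coreceptor of FGF23, lay below the array median in every group.

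Below the receptors, 13 of 20 listed signalling genes were measured. In Atf6a-/- animals 3 rose and 4 fell, and in wild-type animals 1 fell, with medians of 0.17 and -0.11. Over all genes 15.2% were called higher and 12.8% lower in Atf6a-/- animals, and 3.86% lower in wild-type animals. With 13 genes and no test of the list, these counts are not read as a response of the list. Relative to Btf3 and Ppia the Atf6a-/- counts were 2 and 5, and relative to the spike-ins 7 and 3. Rps6ka3, an ERK-activated kinase, Shc1, an adaptor, and Nras rose in Atf6a-/- livers by 1.59, 1.14 and 0.94 (adjusted p = 6.26e-06, 5.09e-06 and 0.00154). The phospholipase gene Plcg1, the exchange factor gene Sos1, the adaptor gene Gab1 and the kinase gene Map2k2 fell, the first 3 by 1.62, 1.45 and 1.37 (adjusted p = 2.15e-06, 0.000198 and 5.94e-06). The second brightest Sos1 probe set gave 0.05 in this comparison. Plcg1 was the gene that fell in wild-type livers, by 0.72 (adjusted p = 0.00568), where its second brightest probe set gave 0.18.

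Of 17 feedback inhibitors and response genes of ERK, 9 rose and 1 fell in Atf6a-/- livers, and none was called in wild-type livers (median 0.77 and 0.16). By the methods' t-test after adjustment 5 rose and none fell in Atf6a-/- livers. Of the 7 genes with a second brightest probe set, that probe set rose for 1 and fell for 1. Relative to Btf3 and Ppia 7 rose and 3 fell in Atf6a-/- livers, and relative to the spike-ins 13 rose and none fell, with 4 rises in wild-type livers. Fos had the largest wild-type difference, 1.02 (adjusted p = 0.372). Dusp5 and Dusp4, phosphatases that switch off ERK, rose by 3.58 and at least 8.94-fold (adjusted p = 1.21e-05 and 2.2e-07), Dusp4 from below the array median, and Ier3, an immediate early gene, by 3.06 (adjusted p = 0.000404). Dusp6, another ERK phosphatase, which FGF signals induce, read 11.4, 11.2 and 11.7 in Atf6a-/- TM animals, above all other animals, which lay between 7.69 and 9.72. It was 2.56 higher than in wild-type TM livers (adjusted p = 0.00055). Phlda1 was the 1 gene that fell, by 1.10 (adjusted p = 0.0204), a call lost without Atf6a-/- vehicle animal 2 or 3 or Atf6a-/- TM animal 2. The responses of Dusp5, Dusp4 and Dusp6 differed by 3.67, 3.17 and 2.58 (adjusted p = 0.000851, 7.59e-05 and 0.00988), that of Dusp4 with both vehicle means below the array median. Among the 3 Atf6a-/- TM animals Dusp6 varied less than the other genes named as rising. In animals 1, 2 and 3 Dusp5 read 9.55, 7.71 and 9.09, Dusp4 7.54, 8.39 and 7.60, and Ier3 9.49, 7.11 and 8.48. A link of any of these genes to the Fgf21 level was not tested.

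Of 9 genes of the FGFR4 and beta-Klotho bile acid axis, 5 fell in wild-type and 8 in Atf6a-/- animals, with medians of -0.71 and -2.17, and none rose. By the methods' t-test after adjustment none was called in wild-type animals and 7 fell in Atf6a-/- animals. Cyp7a1, the rate-limiting enzyme of bile acid synthesis, which FGFR4 signalling represses, read 9.34 to 11.0 over the vehicle animals. It read 7.63, 7.07 and 8.56 in wild-type TM animals and 5.05, 4.52 and 4.62, close to the array median, in Atf6a-/- TM animals, with no overlap. Its responses were -2.28 ± 0.38 and -5.77 ± 0.38 (SE, adjusted p = 0.00351 and 4.91e-07). Cyp8b1, of cholic acid synthesis, fell by 6.20 in Atf6a-/- livers (adjusted p = 3.77e-06) and gave -0.08 in wild-type livers. Slc10a1, the bile acid uptake carrier NTCP, fell by 1.66 and 8.18 (adjusted p = 0.00209 and 3.62e-09). Cyp27a1 fell by 1.23 in wild-type livers (adjusted p = 0.00389).

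PPARa target genes fell in most cases in Atf6a-/- livers, 10 of 13, with 1 rise, and 3 of 13 fell in wild-type livers (medians -1.87 and -0.30). The wild-type count was 1 without wild-type vehicle animal 1 and 0 by the methods' t-test after adjustment. Fabp1, the liver fatty acid binding protein, fell by 1.61 and 7.03 (adjusted p = 0.0405 and 2.18e-07), the first of which was lost on leaving out any 1 of 8 animals (adjusted p = 0.0538 to 0.137). The beta-oxidation genes Acaa2 and Ehhadh responded by -3.29 and -2.75 in Atf6a-/- livers (adjusted p = 8.44e-09 and 7.29e-06). Pdk4, a brake on glucose oxidation, was the 1 that rose, by 3.29 (adjusted p = 0.00698).

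Of 4 genes reported to respond to FGF21 in liver, Igfbp1, which encodes an IGF binding protein, rose by 2.07 and 2.00 in wild-type and Atf6a-/- livers (adjusted p = 0.0325 and 0.0107). The first call was lost without any 1 of the wild-type TM animals, and the second without Atf6a-/- vehicle animal 2. Igf1 fell by 1.51 and 2.99 (adjusted p = 0.00917 and 1.04e-05). Socs2, a growth hormone feedback gene, read 4.62, 5.69 and 6.70 in wild-type TM animals against 8.08 to 8.54 after vehicle, a response of -2.61 (adjusted p = 0.00415). In Atf6a-/- TM animals it read 9.04, 8.996 and 9.78 against 7.23 to 8.45 after vehicle, a response of 1.53 in the other direction (adjusted p = 0.0228), a call lost without Atf6a-/- vehicle animal 1 or 3 or Atf6a-/- TM animal 3. The responses differed by 4.14 (adjusted p = 0.00158). Ppargc1a, a coactivator of PPARa, fell at least 6.33-fold in Atf6a-/- livers, to below the array median (adjusted p = 4.7e-05).

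**Figure D5:**
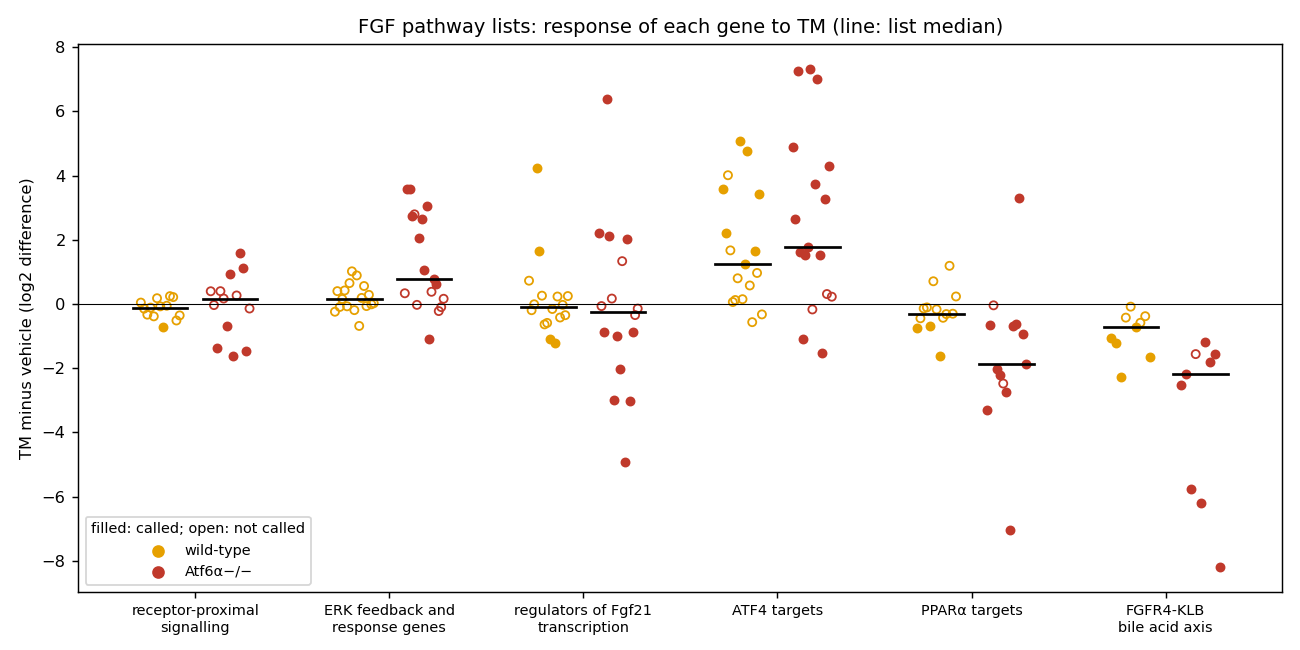
Log2 difference of TM minus vehicle for each measured gene of 6 lists, in wild-type (yellow) and Atf6a-/- (red) livers; filled points were called, open points were not, and black lines are list medians. ERK feedback and response genes have a median of 0.77 in Atf6a-/- livers, ATF4 targets 1.77, PPARa targets -1.87 and the bile acid axis -2.17.

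The genes most like each called member were found by the root-mean-square difference of log2 values over the 12 arrays, each gene centred on its own mean. This is a description of likeness, and no test was made. For Fgf21, whose own spread on this measure was 0.96, the nearest were Cdkn1c (0.39), Fmnl2 (0.41), Usp6nl (0.44), Tagln2 (0.46) and Rad1 (0.49). Cdkn1c, a cell cycle inhibitor, read 8.41, 8.01 and 5.80 in Atf6a-/- TM animals 1, 2 and 3, high in the same 2 animals as Fgf21. It was picked among 7470 genes for likeness over these same arrays, so this match follows from the choice. For Fgfr4, with a spread of 1.49, Dpp4 was nearest (0.14), followed by Gpr155 (0.20), Mgam (0.22), Pcyt2 (0.22) and Car8 (0.22). Dpp4, a cell surface peptidase, had means of 9.34 and 9.39 in the vehicle groups, 7.99 in wild-type TM and 5.89 in Atf6a-/- TM livers. For Fgfr3 the nearest were Erg28 (0.17), Pnp (0.18), S100a13 (0.22), Hsd17b7 (0.23) and Galnt4 (0.23), beside a spread of 0.62. Fgfr2 had a spread of only 0.28, and Ubtd1, Rptor, Dennd6a, Foxp1 and Coro1b lay within 0.09 to 0.11 of it.

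Scaling mattered for the smaller changes. Relative to the mean of Btf3 and Ppia, all Atf6a-/- responses moved by -0.52, and relative to the hybridization spike-ins by 0.49. The called falls of Fgfr4 and Fgfr3 in Atf6a-/- livers kept their direction and call under both. The Atf6a-/- fall of Fgfr2 was no longer called with the spike-ins (-0.20), Klb was called higher with them (0.65, adjusted p = 0.0161), and Fgfr1 was called lower relative to Btf3 and Ppia (-0.92, adjusted p = 0.0048). The split of called members in the Atf6a-/- response was thus 1 higher and 3 lower as deposited, 1 and 4 relative to Btf3 and Ppia, and 2 and 2 relative to the spike-ins. Both scalings move all genes alike, and the share of all genes called under them is not given here. The changed split is therefore not a result about the members, and the same holds for the list counts under these scalings.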

How the data were processed

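RNA from 12 livers, 3 animals in each of 4 groups, was hybridized to Affymetrix mouse arrays. The deposited values are log2 levels, which the authors obtained by RMA with affy and limma, per the labels. Versions and the genome build are not given in the sources used here. RMA sets all arrays to a common distribution, so a change in total RNA is not seen. Of 45101 probe sets, 64 controls were removed. The platform table gave 1 symbol to 34945 probe sets, several to 932 and none to 9160, and genes were named only from the first. A gene took its probe set with the highest mean over 12 arrays.

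Groups were compared with limma 3.58.1 (R 4.3.3) on all 12 arrays with 1 mean per group, two-sided, with Benjamini-Hochberg adjustment over 45037 probe sets. A gene was called at adjusted p below 0.05 and above 1.5-fold. The fit was tested on simulated data. Neighbouring groups in an order of levels were compared by exact permutation tests (SciPy 1.17.1). A group mean under the highest array median, 4.71, was taken as dim. A fold against a dim group is given as a bound, in which each of its arrays takes the higher of its own median and the probe set's value.

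The 6 genes, the 9 pathway lists (113 of 125 genes measured) and the 10 marker lists (79 of 92) were chosen with earlier results of these data known. The genes not measured were not analysed here. Named genes are the members, the up to 3 largest called rises and falls of each list and comparison, Atf6, Atf4, Ddit3, Xbp1, Ppara, Cyp7a1 and Fgf15, and the 5 genes closest in pattern to each called member, among genes with a group mean of at least 7. Eif2ak3, Dusp6, Map2k2, Asns, Chac1 and Kl are also given where that rule did not take them, with values already seen. No source says whether the animals of a group came from separate litters or days, and p-values measure only the spread between them. The summed level of a marker list is the log2 of the sum of its unlogged values. Alternatives covered scaling, probe set choice, filters, spread estimates, the methods' t-test and leaving out each array.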

Additional observations from a re-analysis of the deposited data

Results flagged for a closer look

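The following genes responded differently to TM in the genotypes by the interaction test of limma (adjusted p from 2.08e-06 to 0.0438). Values are the Atf6a-/- response minus the wild-type response on the log2 scale.

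Among the members these were Fgfr4 at -2.27 (brightest probe set) and -0.64 (rank 3 by brightness) and Fgfr2 at -0.59. Among the other ligands Fgf1 was at -1.63. Of the signalling genes Rps6ka3 was at 1.35, Nras at 1.01 and Shc1 at 0.92, whereas Gab1 was at -1.04, Plcg1 at -0.90 and Map2k2 at -0.87. The ERK phosphatase genes Dusp5, Dusp4 and Dusp6 were at 3.67, 3.17 and 2.58.

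Of the regulators of Fgf21 transcription, Rora was at 1.79 and Atf4 at 1.499, and Ppara was at -3.70, Rxra at -2.59 and Mlxipl at -2.34. Of the ATF4 targets, Ppp1r15a was at 2.49, Psat1 at 2.24 and Nupr1 at 2.23, and Shmt2 was at -0.97. The PPARa targets Fabp1, Ehhadh and Acaa2 were at -5.42, -2.59 and -2.55. In the bile acid axis, Slc10a1 was at -6.52, Cyp8b1 at -6.12 and Cyp7a1 at -3.49. Socs2 was at 4.14, Ppargc1a at -3.92 and Igf1 at -1.48. Atf6, the deleted gene, was at 1.75. The values of Fgfr4 (brightest probe set), Dusp4, Psat1 and Ppargc1a include at least 1 group mean below the array median, so their sizes depend on signal at background. Those of Cyp7a1 and Fgf1 include Atf6a-/- TM levels close to that median.

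The calls of Psat1, Igf1, Nras and Nupr1 were lost on leaving out any 1 of 11, 10, 7 and 6 of the 12 animals, with adjusted p up to 0.11. That of the member Fgfr2 was likewise lost on leaving out any 1 of 6 animals (limma adjusted p = 0.0522 to 0.073).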

How the results depend on the processing

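As deposited, 2, 4, 1, 0 and 2 of the 6 genes were called in the wild-type response, the Atf6a-/- response, the genotype comparison after TM, that after vehicle, and the interaction. Leaving out each animal in turn gave 1 to 2, 3 to 4, 1 to 2, 0 and 1 to 2. The vehicle count stayed 0 under every alternative. The wild-type count was 1 relative to the spike-ins, and 0 with the mean of the probe sets, the second brightest probe set or the methods' t-test after adjustment. The Atf6a-/- count was 0 with the second brightest probe set, for which Fgf21 has none. The count between genotypes after TM was 4 relative to Btf3 and Ppia, 2 relative to the spike-ins, with dim probe sets left out, with array weights, and with no fold threshold, and 0 with the second brightest probe set or the adjusted t-test of the methods. The interaction count was 1 relative to the spike-ins, with the mean of the probe sets or with a trended and robust spread, and 0 with the second brightest probe set. The cause of these shifts was not tested, and the share of all genes called under each alternative is not given here.

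For Fgf21 the genotype difference after TM was called relative to the spike-ins (1.80, adjusted p = 0.0142), with dim probe sets left out (1.57, adjusted p = 0.0345) and with array weights (1.65, adjusted p = 0.0282). Its Atf6a-/- response of 1.86 missed the threshold by the methods' t-test, at 0.0826 unadjusted and 0.217 adjusted. Leaving out each animal gave 1.35 to 2.64 for that response, 1.06 to 2.35 for the genotype difference, 1.30 to 2.59 for the interaction, -0.11 to 0.37 for the wild-type response and -0.40 to 0.08 after vehicle. Of the other named genes, 3 of 24 kept their side of the threshold under all alternatives in the wild-type response, 26 of 37 in the Atf6a-/- response, 11 of 34 and 15 of 16 between genotypes after TM and after vehicle, and 21 of 33 in the interaction. The signs of Plcg1 in wild-type livers (0.18) and of Sos1 in Atf6a-/- livers (0.051) and between genotypes after TM (0.30) turned with the second brightest probe set.

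With the animal number as a replicate block, the count between genotypes after TM was 2, since Fgf21 was called (1.57, adjusted p = 0.0371). The labels give the numbers as names only. The correlations of deviations from the group means were over 0.1 for 8 of 18 same-numbered pairs (-0.18 to 0.373) and 5 of 36 others (-0.353 to 0.221), and the own number correlated best in 20 of 36 cases. Same-numbered pairs thus passed 0.1 more often than the others. The fit without a block was kept because the labels name no pairing. Shared handling of same-numbered animals was not tested and cannot be told from the labels. The methods' t-test and the fit of only the compared groups have no interaction value.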
